A study of Homo sapiens with 12 samples.

Results

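Of the 58302 genes in the count table, the 10 described here are long noncoding RNAs linked to prostate cancer or to cell growth, chosen by matching a named list to Ensembl gene IDs. They are PCA3, PCAT1, PCGEM1 and SCHLAP1, which are known mainly from prostate tumours, the nuclear RNAs MALAT1 and NEAT1, and PVT1, H19, NKILA and GAS5. The study asked what ETV4, an ETS transcription factor of the PEA3 type, changes in the human prostate cancer lines PC3 and 22Rv1. PC3 comes from a bone metastasis and lacks luminal prostate features, and 22Rv1 comes from a xenograft and keeps them. Each line had been infected with a lentivirus holding an MSCV vector, and RNA was taken 1 week later from sorted eGFP-positive, DAPI-negative living cells. The 6 groups were PC3 or 22Rv1 with the IRES-eGFP control vector alone (eGFP), with wild-type ETV4 (ETV4WT-IRES-eGFP) or with a mutated ETV4 (ETV4AAA-IRES-eGFP), and all 6 groups carried eGFP. Which residues ETV4AAA changes is left unsaid by the labels. Each group held 2 libraries of poly(A)-enriched RNA, 12 in all, each line is a single cell line, and nothing in the labels says that the replicates were separate cultures, so p-values measure only the spread between these libraries, which may be technical.

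A long noncoding RNA is a transcript that is not translated into a conventional protein. Some act where they are made, on neighbouring genes or chromatin, some build nuclear bodies, and some carry smaller RNAs such as microRNAs or snoRNAs within them. NEAT1 is the scaffold of the paraspeckle, a nuclear body of RNA-binding proteins. MALAT1 lies in nuclear speckles. GAS5 hosts snoRNAs in its introns, collects in cells that stop growing and is removed by decay that depends on translation. H19 is imprinted together with IGF2 and hosts a microRNA. PVT1 lies beside MYC, the gene of a transcription factor that drives growth, and the pair is often gained together in tumours. NKILA is known as an NF-kB-induced RNA that restrains NF-kB signalling, and it lies on the strand opposite PMEPA1. PCA3 is a urine marker of prostate cancer that lies on the strand opposite PRUNE2, PCAT1 and SCHLAP1 are raised in subsets of prostate tumours, and PCGEM1 is an androgen-linked prostate transcript.

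Library totals ran from 43572713 to 51199207 counts in PC3 and from 41698738 to 50226044 in 22Rv1, with 4.31% to 5.14% and 8.05% to 9.81% of counts from mitochondrial genes. Levels are in CPM, counts scaled to a common library total after each total was multiplied by its TMM factor, edgeR's scaling between libraries. These factors ran from 0.917 (22Rv1 ETV4WT replicate 1) to 1.07 (22Rv1 eGFP replicate 2), so differences in CPM between libraries also depend on them. Replicates of every group differed by more than counting noise. ETV4 stood at 24.9 and 31.2 CPM in 22Rv1 with eGFP and at 281 to 484 CPM with the constructs. In PC3 the eGFP libraries held 116 and 126 CPM of ETV4, replicates 1 and 2 labelled ETV4WT held 215 and 112 CPM, and those labelled ETV4AAA held 222 and 109 CPM, so replicate 2 of both PC3 constructs was not above eGFP. The calls of members and the counts of listed genes in PC3 are therefore also given without both of these libraries. In the edgeR test described below, ETV4 was called with neither construct in PC3 (log2 0.43 for ETV4WT and 0.46 for ETV4AAA). It was called with both in 22Rv1 (3.95 and 3.58). The luminal markers KLK2, KLK3, TMPRSS2 and FOLH1 were between 0 and 0.149 CPM in PC3 and above 19 CPM in every 22Rv1 library, while HOXB13 was high in both lines. VIM, CAV1, CAV2, CD44 and AXL were high in PC3, and TGFBI, on the same marker list, was at most 0.161 CPM there. Of the markers of other cell types, the 5 immune markers summed to 1.28 to 1.56 CPM in 22Rv1 with eGFP, 1.65 to 1.76 CPM with ETV4WT and 8.21 to 8.98 CPM with ETV4AAA, and to 0.221 to 0.632 CPM in PC3. Only 2 of the 5 were tested, and 1 of these rose in 22Rv1 with ETV4AAA and 1 in PC3 with each construct. In each 22Rv1 group 1 of the 5 averaged over 0.5 CPM, and in each PC3 group 0 did. The part of immune markers in the results was not tested. PECAM1 stood at 12.4 to 22.3 CPM in PC3 and at most 0.712 CPM in 22Rv1. Of the 3 endothelial markers 1 was tested, and it rose with ETV4AAA against eGFP in both lines. The 4 fibroblast markers summed to 15.4 to 32.1 CPM in PC3 and 7.83 to 11.7 CPM in 22Rv1.

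All coordinates are on GRCh38 and gene models are from GENCODE 29. H19 (ENSG00000130600) lies on chromosome 11 from 1995176 to 2001470 on the minus strand, NKILA (ENSG00000278709) on chromosome 20 from 57710183 to 57712780 on the plus strand, and GAS5 (ENSG00000234741) on chromosome 1 from 173863900 to 173868882 on the minus strand. NEAT1 (ENSG00000245532) lies on chromosome 11 from 65422774 to 65445540 and MALAT1 (ENSG00000251562) next to it from 65497688 to 65506516, both on the plus strand. SCHLAP1 (ENSG00000281131) lies on chromosome 2 from 180692104 to 180916939, PCGEM1 (ENSG00000227418) on chromosome 2 from 192749845 to 192776899, and PCA3 (ENSG00000225937) on chromosome 9 from 76691980 to 76863307, all on the plus strand.

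The member with the largest change against eGFP in 22Rv1, H19, is the precursor of a microRNA, and its mature forms are printed because their seeds (bases 2 to 8, in capitals) set which messages they can pair with. The sequences are from RefSeq (GRCh38.p14), at chr11:1996800-1996822 and chr11:1996768-1996787 on the minus strand, within H19. The count table gives the host gene and not the processed microRNA.
hsa-miR-675-5p: uGGUGCGGagagggcccacagug
hsa-miR-675-3p: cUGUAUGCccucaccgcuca

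ETS factors bind sites with a GGAA core, and the longer GGAAG was searched here. The stretch from 250 bases before to 50 bases after the RefSeq start was read for 3 members that changed with a construct. Of the 10 members, 6 were matched in the promoter table. The H19 promoter (chr11:2001217-2001516, minus strand) holds GGAAG once, read on the opposite strand as CTTCC and set in capitals, 139 bases before the start. The GAS5 promoter (chr1:173868996-173869295, minus strand) holds GGAAG once, in capitals, 121 bases before the start. The NKILA promoter (chr20:57709933-57710232, plus strand) holds no GGAAG on either strand, though it does hold the shorter GGAA.
H19 promoter: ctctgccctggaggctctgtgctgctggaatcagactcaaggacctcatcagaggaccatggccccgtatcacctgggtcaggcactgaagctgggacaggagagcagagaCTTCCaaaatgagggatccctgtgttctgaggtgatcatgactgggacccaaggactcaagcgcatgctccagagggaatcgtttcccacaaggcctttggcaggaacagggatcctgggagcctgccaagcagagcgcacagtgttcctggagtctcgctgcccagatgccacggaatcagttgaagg
NKILA promoter: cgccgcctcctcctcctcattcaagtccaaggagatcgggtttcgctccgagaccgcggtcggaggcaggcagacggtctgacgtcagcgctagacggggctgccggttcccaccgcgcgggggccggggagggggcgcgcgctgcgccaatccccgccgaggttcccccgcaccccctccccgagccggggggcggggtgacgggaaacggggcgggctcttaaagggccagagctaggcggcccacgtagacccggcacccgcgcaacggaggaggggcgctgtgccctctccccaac
GAS5 promoter: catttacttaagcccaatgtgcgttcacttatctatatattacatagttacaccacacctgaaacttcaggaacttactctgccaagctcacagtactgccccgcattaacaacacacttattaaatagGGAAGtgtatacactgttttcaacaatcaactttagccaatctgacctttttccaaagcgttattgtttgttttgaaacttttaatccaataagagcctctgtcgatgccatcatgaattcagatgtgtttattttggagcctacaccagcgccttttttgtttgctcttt

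On both strands, MALAT1 held GGAAG once in each of its 2 promoter entries, PCA3 2 times in each of its 2 entries and PCGEM1 not at all, and 71.9% of the 35114 promoters of that length held it. The longer PEA3-type site CCGGAAGT, which contains GGAAG, was in none of these members and in 4.1% of all promoters. A match is a description of the letters and not a measured binding site.

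In 22Rv1, ETV4AAA went with more H19 and PCAT1 and less NKILA, SCHLAP1 and NEAT1. H19 rose 13.1-fold and PCAT1 3.93-fold against eGFP, and NKILA fell by 1.17 ± 0.21 in log2 units. ETV4WT moved none of the 9 tested members past the threshold in 22Rv1. In PC3, GAS5 rose with ETV4WT and NEAT1 fell with ETV4AAA, and NKILA held 0 counts with eGFP and 20 with ETV4WT. The calls of GAS5, NEAT1 and SCHLAP1 ended when certain single libraries were left out. In bulk RNA, fewer cells that make an RNA and less of it per cell cannot be told apart. The plot of all 10 members by library shows these levels.

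**Figure D1:**
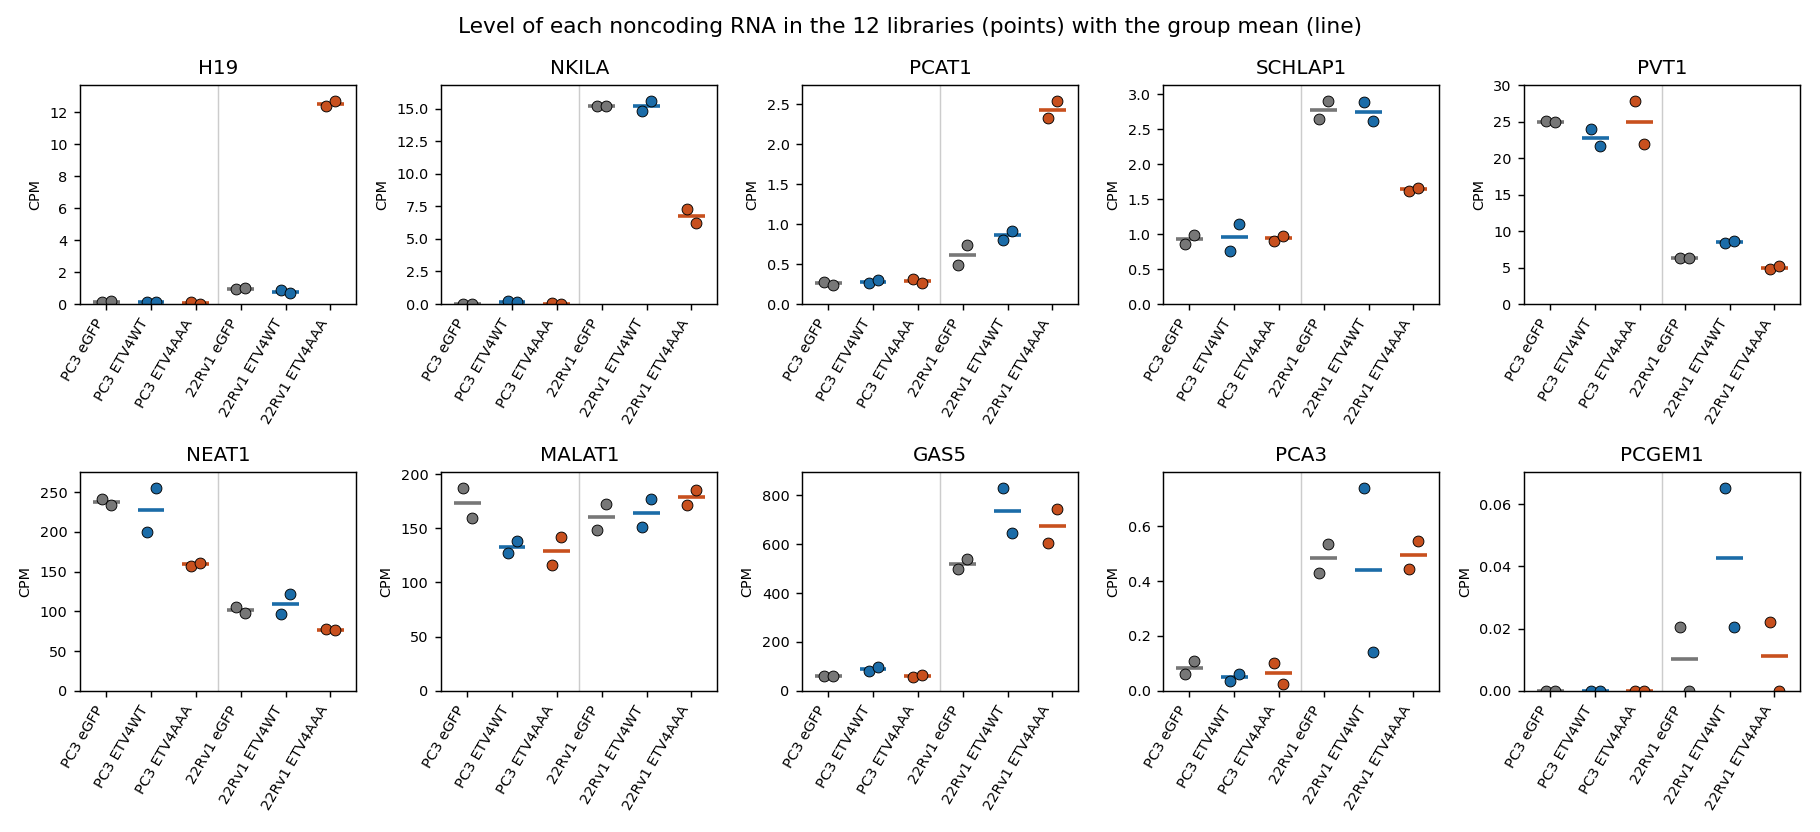
Level in CPM (vertical axes, linear, from 0) of each of the 10 noncoding RNAs in the 12 libraries (points, coloured by construct) with the mean of the 2 libraries of a group (line), PC3 on the left and 22Rv1 on the right of each panel. H19 stands at 12.4 and 12.7 CPM in 22Rv1 with ETV4AAA and below 1 CPM in all other libraries, and NKILA stands above 6 CPM in 22Rv1 and at or below 0.204 CPM in PC3.

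A log2 change is printed ± its SE (n = 2 libraries per group), and its p comes from edgeR's quasi-likelihood test, adjusted by Benjamini-Hochberg over 23238 genes, with 0.05 as the threshold. PCGEM1 had too few counts for the test, which leaves 9 members. For ETV4AAA against eGFP in 22Rv1, 2 of 9 members rose and 3 fell, where 17.4% of all tested genes rose and 14.4% fell. For ETV4AAA against ETV4WT in 22Rv1, 2 rose and 4 fell, where 13.9% rose and 9.62% fell. For ETV4WT against eGFP in 22Rv1, edgeR called 0 of 9, where 1.50% of genes were called, 1.06% up and 0.439% down. PVT1 and GAS5, 2 members, had an unadjusted p under 0.05 there, and DESeq2 and limma also called 0. The members' median log2 change was 0.03, -0.13 and 0.04 in these 3 comparisons, beside -0.0012, -0.028 and 0.01 over all tested genes.

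For ETV4WT against eGFP in PC3, 2 members rose and 0 fell, where 12.7% of genes rose and 10.7% fell. For ETV4AAA against eGFP in PC3, 0 rose and 1 fell, where 3.69% of genes were called, 2.45% up and 1.24% down. For ETV4AAA against ETV4WT in PC3, 0 rose and 3 fell, where 3.65% rose and 7.32% fell. NKILA is 1 of the 2 rises and 1 of the 3 falls, and it passed the count filter only through 22Rv1. Without both PC3 construct libraries numbered 2, these became 1 rise, which was NKILA, 1 fall and 0 calls. With upper-quartile scaling 3724 genes rose and 1661 fell for ETV4WT in PC3, against 2958 and 2476 here, and 414 rose and 2018 fell for ETV4AAA against ETV4WT, in place of 848 and 1702. As a difference between lines, the ETV4AAA effect was higher in 22Rv1 for 2 members and lower for 0, where 16.2% of genes differed, 9.48% and 6.73% in these directions, and the ETV4WT effect was higher for 0 and lower for 1, again NKILA, where 4.92% and 7.57% were. With upper-quartile scaling the ETV4WT effect was higher for 731 genes and lower for 2264, in place of 1144 and 1759. H19, among the members with a higher ETV4AAA effect in 22Rv1, also passed the count filter only through 22Rv1. The 3 comparisons within a line share libraries, so their counts are not independent of each other.

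**Figure D2:**
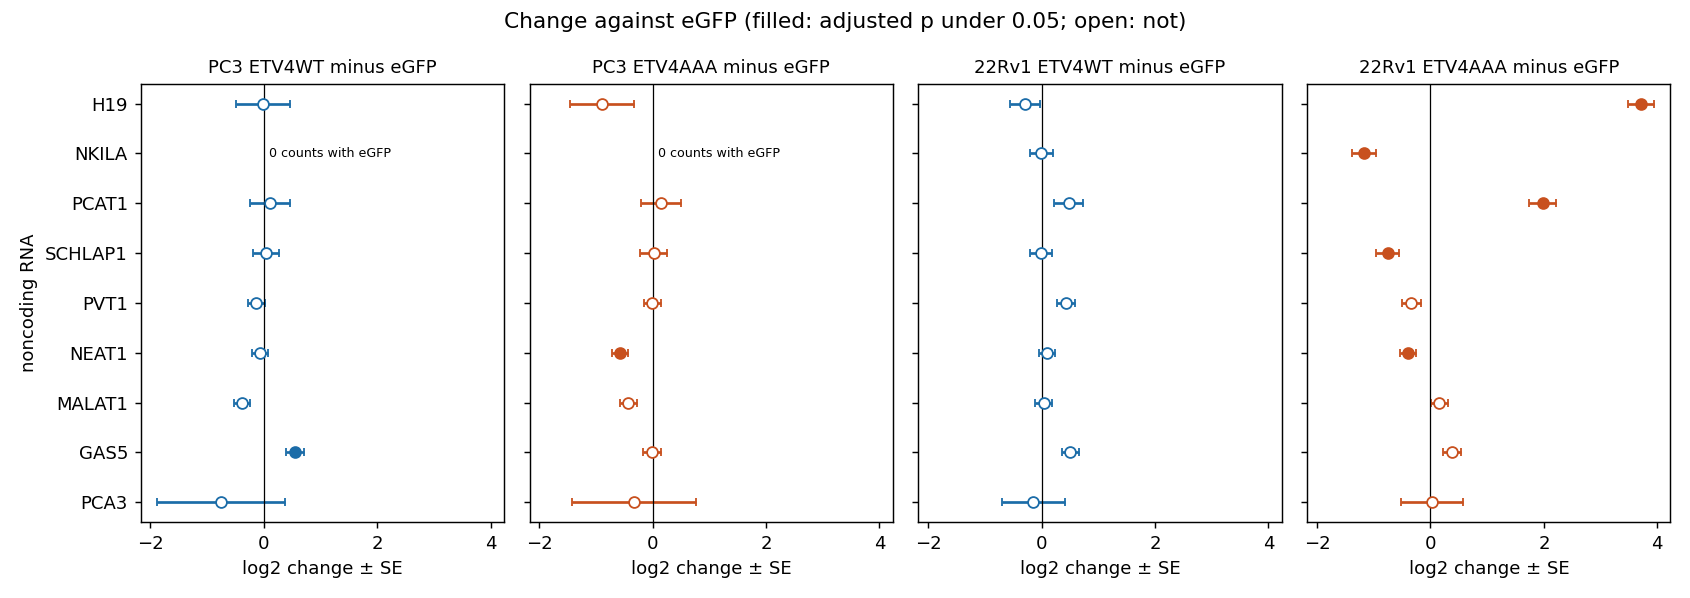
Log2 change against eGFP (horizontal axis, ± SE, n = 2 libraries per group) of the 9 tested members in each line and construct, with filled points for an adjusted p under 0.05 and open points otherwise. In 22Rv1 with ETV4AAA, H19 (3.71) and PCAT1 (1.98) lie to the right of 0 and NKILA (-1.17) and SCHLAP1 (-0.76) to the left; NKILA has no point in PC3 because its eGFP libraries held 0 counts.

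The lines themselves differed in most members. With eGFP alone, 6 of 9 members were higher in 22Rv1 and 2 were higher in PC3, where 70.9% of all tested genes differed, 34.9% and 36.0% in these directions. NKILA, GAS5, H19, PCA3, SCHLAP1 and PCAT1 were higher in 22Rv1, NEAT1 and PVT1 were higher in PC3, and MALAT1 did not pass (log2 -0.12 ± 0.14, adjusted p = 0.483). NKILA, H19 and PCA3 passed the count filter only through 22Rv1, so their place among the 6 is a description. With upper-quartile scaling 9917 genes were higher in 22Rv1 and 6767 in PC3, in place of 8105 and 8377. The median difference of the members was 1.58 in log2 units, beside 0 over all tested genes.

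Divided by the length of their exons, the levels of different members can be set side by side, within the limits of the gene models. In 22Rv1 with eGFP the order was GAS5 at 143 CPM per kb, MALAT1 at 18.1, NKILA at 5.86, NEAT1 at 4.46, SCHLAP1 at 1.93, PVT1 at 1.15 and H19 at 0.33 CPM per kb. PCA3 at 0.0341 CPM per kb followed, and PCGEM1 was last at 0.00599. PCAT1 stood at 0.0366 CPM per kb over the 16848 exon bases of its GENCODE model, which is far longer than the RefSeq gene, so its place in the order depends on that model. The place of PCA3 does so too, because its GENCODE model holds 14174 exon bases over 171.3 kb, against 23.13 kb in RefSeq. In PC3 with eGFP the order was MALAT1 at 19.6 CPM per kb, GAS5 at 16.6, NEAT1 at 10.4, PVT1 at 4.55, SCHLAP1 at 0.645, H19 at 0.0505 and PCA3 at 0.00592, with PCAT1 at 0.0154 over its GENCODE model. NKILA and PCGEM1 held 0 counts there. MALAT1 and the long form of NEAT1 end without a conventional poly(A) tail, so poly(A) enrichment can understate them against the other members. NEAT1 was divided by 22767 exon bases, its full length, so its place in the order also depends on which form was counted.

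Of the prostate-linked members, SCHLAP1, which is known to interfere with the SWI/SNF chromatin remodeller, was counted in both lines. In 22Rv1 it stood at 2.64 and 2.90 CPM (eGFP), 2.89 and 2.61 CPM (ETV4WT) and 1.62 and 1.66 CPM (ETV4AAA). Both ETV4AAA libraries lay below all 4 others of the line. SCHLAP1 fell by 0.76 ± 0.20 in log2 units against eGFP (adjusted p = 0.0132) and by 0.75 ± 0.20 against ETV4WT (adjusted p = 0.0186). In PC3 its 6 libraries held 0.762 to 1.15 CPM, with log2 changes of 0.04 ± 0.23 with ETV4WT and 0.02 ± 0.24 with ETV4AAA. The ETV4AAA effect was not shown to differ between the lines (log2 -0.78 ± 0.31, adjusted p = 0.116, or -0.70 and 0.212 without both PC3 construct libraries numbered 2). The call against eGFP ended without ETV4AAA replicate 1 (adjusted p = 0.0576) or eGFP replicate 2 (0.0545) of 22Rv1. The call against ETV4WT ended without ETV4AAA replicate 1 (0.0831), ETV4AAA replicate 2 (0.0612) or ETV4WT replicate 1 (0.0756), and with DESeq2 (0.0676).

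PCAT1, which is known as a repressor of BRCA2 and a partner of MYC, went the other way. In 22Rv1 its row held 24 and 36 counts with eGFP, 37 and 45 with ETV4WT, and 105 and 107 with ETV4AAA, or 0.492 and 0.741, 0.805 and 0.918, and 2.33 and 2.54 CPM. Both ETV4AAA libraries lay above every other library of either line. PCAT1 rose by log2 1.98 ± 0.23 against eGFP (adjusted p = 4.94e-05) and by 1.49 ± 0.22 against ETV4WT (adjusted p = 0.000423). In PC3 it stayed between 0.236 and 0.308 CPM, at 11 to 15 counts a library. The ETV4AAA effect was larger in 22Rv1 than in PC3 by log2 1.83 ± 0.43 (adjusted p = 0.0122), and without PC3 eGFP replicate 1 the adjusted p of that difference was 0.0832. Without both PC3 construct libraries numbered 2 it was log2 1.75 (adjusted p = 0.0431).

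PCAT1 (ENSG00000253438) lies on chromosome 8, as does PVT1 (ENSG00000249859). The PCAT1 model of GENCODE 29 spans 862.7 kb, against 7.86 kb in RefSeq, and encloses FAM84B on the opposite strand and POU5F1B, so its row has to be read with these neighbours. FAM84B, which encodes a membrane-associated protein, stood at 40.9 and 41.3 CPM in 22Rv1 with eGFP and at 188 and 217 CPM with ETV4AAA (log2 2.30 ± 0.12, adjusted p = 6.08e-08). POU5F1B, a retrogene of the OCT4 gene, stood at 0.0617 and 0.328 CPM and at 2.04 and 2.84 CPM (log2 3.63 ± 0.44, adjusted p = 5.81e-05). Of the noncoding RNAs within the model, CASC8 went from 0.967 and 1.17 CPM (eGFP) to 2.27 and 3.37 CPM (ETV4WT, log2 1.40 ± 0.27, adjusted p = 0.0264) or 1.60 and 2.16 CPM (ETV4AAA, 0.81 ± 0.28, adjusted p = 0.0464). The CASC8 call with ETV4AAA ended with DESeq2 (adjusted p = 0.0941) and limma (0.0598), and that with ETV4WT did not (0.0116 and 0.0362). CASC19 (0.86 ± 0.38, adjusted p = 0.154) and PRNCR1 (-0.63 ± 0.37, adjusted p = 0.217) did not pass with ETV4AAA. The labels do not say whether strand was used in counting, so reads of FAM84B and PCAT1 cannot be told apart where they overlap. In PC3 FAM84B was at 1058 to 1444 CPM and PCAT1 at 0.236 to 0.308 CPM.

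PCA3 and PCGEM1 were near the limit of what these libraries count. PCA3 held 21 and 26 counts in 22Rv1 with eGFP, 34 and 7 with ETV4WT, and 20 and 23 with ETV4AAA, and 1 to 5 counts in each PC3 library. The 22Rv1 ETV4WT libraries lay on either side of all the others of the line. With eGFP PCA3 was higher in 22Rv1 than in PC3 by log2 2.50 ± 0.74, a call that ended without PC3 eGFP replicate 1. PCA3 passed the count filter only through 22Rv1, so this line difference is given as a description. Neither construct moved it past the threshold in 22Rv1, with log2 changes of -0.15 ± 0.55 for ETV4WT and 0.03 ± 0.55 for ETV4AAA. PRUNE2, which overlaps PCA3 on the opposite strand, stood at 139 and 152 CPM in 22Rv1 with eGFP. In PC3 with eGFP it stood at 8.17 and 9.13 CPM, so the line difference was in the same direction. With strand use unstated, reads of PCA3 and PRUNE2 cannot be told apart where they overlap. PRUNE2 rose in PC3 with ETV4WT (log2 1.13 ± 0.16, adjusted p = 0.000441) and ETV4AAA (1.02 ± 0.16, adjusted p = 0.00451), and both calls of PRUNE2 held without both construct libraries numbered 2 (0.000667 and 0.00381). PCGEM1 held 0 counts in all 6 PC3 libraries and 1, 4 and 1 counts per group in 22Rv1 with eGFP, ETV4WT and ETV4AAA, so that no difference was detectable at this depth.

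Among the growth-linked members, H19 had the clearest pattern. In 22Rv1 it held 45 and 48 counts with eGFP, 40 and 34 with ETV4WT, and 559 and 535 with ETV4AAA, or 0.923 and 0.988, 0.871 and 0.694, and 12.4 and 12.7 CPM. Both ETV4AAA libraries lay above all 10 others. H19 rose by log2 3.71 ± 0.23 against eGFP (adjusted p = 1.91e-07) and by 4.0 ± 0.24, or 16.0-fold, against ETV4WT (adjusted p = 1.67e-07). With ETV4WT against eGFP its log2 change was -0.29 ± 0.26 (adjusted p = 0.662). PC3 libraries held 1 to 8 counts of H19 each, at most 0.172 CPM, and the log2 change with ETV4AAA there was -0.90 ± 0.56 (adjusted p = 0.462). The fitted ETV4AAA effect differed between the lines by log2 4.61 ± 0.62, or 3.97 without both PC3 construct libraries numbered 2. H19 passed the count filter only through 22Rv1, so its PC3 change and this difference between lines are given as a description.

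The imprinted partner of H19, IGF2, a growth factor gene, was counted at a lower level in 22Rv1. IGF2 held 7 counts in 22Rv1 with eGFP, 2 with ETV4WT and 32 with ETV4AAA over both libraries, at most 0.488 CPM in any library. Its log2 change for ETV4AAA against eGFP was 2.30 ± 0.76, a call in edgeR that ended with DESeq2 (adjusted p = 0.0975). IGF2 passed the count filter only through libraries in which it was high, so these counts are given as a description. In PC3 IGF2 held 2, 26 and 0 counts with eGFP, ETV4WT and ETV4AAA, while H19 held 14, 15 and 7. MRPL23, a mitochondrial ribosomal protein gene on the other side of H19, had a log2 change of -0.13 ± 0.29 in 22Rv1 with ETV4AAA (adjusted p = 0.796).

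NKILA was a 22Rv1 transcript in these data. It held 743 and 739 counts in 22Rv1 with eGFP, both 15.2 CPM, 14.8 and 15.6 CPM with ETV4WT, against 7.30 and 6.24 CPM with ETV4AAA. Both ETV4AAA libraries lay below the 4 others of the line. NKILA fell by 1.17 ± 0.21 in log2 units against eGFP (adjusted p = 0.00149) and by 1.17 ± 0.21 against ETV4WT (adjusted p = 0.00199), and its log2 change with ETV4WT was -0.0014 ± 0.20. PMEPA1, a TGF-beta- and androgen-induced gene, overlaps NKILA on the opposite strand and also fell. It went from 384 and 425 CPM with eGFP to 245 and 282 CPM with ETV4AAA (log2 -0.62 ± 0.19, adjusted p = 0.0248). Whether strand was used in counting is unstated, so reads of NKILA and PMEPA1 cannot be told apart where they overlap.

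In PC3 NKILA held 0 counts in both eGFP libraries, 11 and 9 in the ETV4WT libraries, and 3 and 0 in the ETV4AAA libraries, and passed the count filter only through the other line. Over the group, 20 counts against 0 made ETV4WT at least 6.19-fold higher than eGFP, taking 3 counts over the eGFP group as the floor. NKILA was not tested when PC3 was fitted on its own, so these counts are given as a description. Against ETV4WT, ETV4AAA was lower by a ratio of 5.83, with a 95% exact interval of 1.73 to 30.6 that covers counting error only. Other 22Rv1 genes were also counted in PC3 with ETV4WT. As a share of its CPM in 22Rv1 with eGFP, NKILA was at 1.27%, PMEPA1 at 0.181%, TMPRSS2 at 0.106%, KLK2 at 0.0568% and FOLH1 at 0.00732%, with KLK3 at 0 counts. Their part in the NKILA counts was not tested.

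PVT1 stood at 6.29 and 6.30 CPM in 22Rv1 with eGFP, 8.40 and 8.57 CPM with ETV4WT, against 4.75 and 5.24 CPM with ETV4AAA. The 3 groups did not overlap, with ETV4WT highest and ETV4AAA lowest. Against ETV4WT, ETV4AAA libraries were lower by log2 -0.76 ± 0.16 (adjusted p = 0.00392), while neither construct passed against eGFP (0.43 ± 0.16, adjusted p = 0.234, for ETV4WT and -0.33 ± 0.16, adjusted p = 0.134, for ETV4AAA). PC3 held more PVT1, at 21.6 to 27.8 CPM, and with eGFP 22Rv1 was lower by log2 -1.99 ± 0.16 (adjusted p = 2.83e-07). The adjacent oncogene MYC stood at 140.4 and 161 CPM in 22Rv1 with eGFP, 164 and 178 CPM with ETV4WT, against 92.3 and 102 CPM with ETV4AAA. MYC fell with ETV4AAA by 0.63 ± 0.15 in log2 units (adjusted p = 0.00685) and did not pass with ETV4WT (0.18 ± 0.15, adjusted p = 0.631). In PC3 MYC was at 417 to 710 CPM, so that PVT1 and MYC were both higher in that line.

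GAS5 was the most abundant member in 22Rv1. It stood at 498 and 539 CPM (eGFP), 831 and 645 CPM (ETV4WT) and 606 and 744 CPM (ETV4AAA). All 4 construct libraries lay above both eGFP libraries, but neither construct passed the threshold (log2 0.51 ± 0.16, adjusted p = 0.161, and 0.38 ± 0.16, adjusted p = 0.0842). Both passed when no low-count filter was used (adjusted p = 0.0225 and 0.0201), and neither passed in the other 10 of its 11 alternative runs. In PC3 GAS5 stood at 61.2 and 59.6 CPM (eGFP), 79.8 and 97.5 CPM (ETV4WT) and 56.0 and 63.5 CPM (ETV4AAA). GAS5 rose there with ETV4WT by log2 0.55 ± 0.16 (adjusted p = 0.0242), and ETV4AAA was lower than ETV4WT by log2 -0.57 ± 0.16 (adjusted p = 0.0366).

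The GAS5 calls in PC3 were close to the threshold. The rise with ETV4WT ended without ETV4WT replicate 2 (adjusted p = 0.174), eGFP replicate 1 (0.112), eGFP replicate 2 (0.148) or both construct libraries numbered 2 (log2 0.49, adjusted p = 0.0622). The GAS5 difference between the constructs ended without ETV4AAA replicate 1 (0.176), ETV4WT replicate 2 (0.203) or both construct libraries numbered 2 (0.108), with DESeq2 (0.0539), its size factors (0.055) or limma (0.0545), and with each line fitted on its own (0.0585). ZBTB37, a zinc finger gene on the opposite strand that overlaps GAS5, fell in 22Rv1 with ETV4AAA by 0.99 ± 0.16 in log2 units (adjusted p = 0.000652). Reads of GAS5 and ZBTB37 likewise cannot be told apart where they overlap.

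Of the nuclear members, NEAT1 was lower with ETV4AAA in both lines. In PC3 it stood at 241 and 233 CPM (eGFP), 199.7 and 255 CPM (ETV4WT) and 157 and 161 CPM (ETV4AAA). In 22Rv1 it stood at 106 and 97.4 CPM (eGFP), 97.0 and 121 CPM (ETV4WT) and 77.5 and 76.0 CPM (ETV4AAA). Both ETV4AAA libraries were the lowest of their line. NEAT1 fell against eGFP by 0.57 ± 0.14 in log2 units in PC3 (adjusted p = 0.0465) and by 0.40 ± 0.14 in 22Rv1 (adjusted p = 0.0468). Against ETV4WT it fell by 0.51 ± 0.14 in PC3 (adjusted p = 0.036) and by 0.51 ± 0.14 in 22Rv1 (adjusted p = 0.0213).

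These NEAT1 calls lay at the edge of the threshold. Against eGFP they ended without any single library of either comparison, with adjusted p between 0.0678 and 0.302 in PC3 and between 0.0533 and 0.134 in 22Rv1, and with DESeq2 (0.0748 and 0.0889). Without both PC3 construct libraries numbered 2 the PC3 call against eGFP held (log2 -0.59, adjusted p = 0.0494). Against ETV4WT they ended in PC3 without ETV4AAA replicate 1 (0.131), ETV4AAA replicate 2 (0.0688), ETV4WT replicate 2 (0.23) or both construct libraries numbered 2 (0.172), with DESeq2 (0.0501), and with each line fitted on its own (0.0568). In 22Rv1 the NEAT1 call against ETV4WT ended without ETV4AAA replicate 1 (0.0659), ETV4AAA replicate 2 (0.0708) or ETV4WT replicate 2 (0.102). The direction was down under every one of these settings. With eGFP alone NEAT1 was lower in 22Rv1 than in PC3 by log2 -1.22 ± 0.14 (adjusted p = 8.64e-06).

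MALAT1, which lies beside NEAT1, did not pass in any comparison. In PC3 it stood at 187 and 159.6 CPM (eGFP), 127 and 138 CPM (ETV4WT) and 116 and 142 CPM (ETV4AAA). All 4 construct libraries of PC3 lay below both eGFP libraries (log2 -0.39 ± 0.14, adjusted p = 0.0732, and -0.43 ± 0.14, adjusted p = 0.159). In 22Rv1 it stood between 148 and 185 CPM in the 6 libraries. The ETV4AAA effect on MALAT1 did not pass as a difference between lines (log2 0.59 ± 0.20, adjusted p = 0.0733), nor in 13 of 15 alternative runs. It passed without PC3 ETV4AAA replicate 2 (log2 0.74) or both PC3 construct libraries numbered 2. Of the genes near NEAT1 and MALAT1, FRMD8 (log2 0.97 ± 0.29, adjusted p = 0.0235) and LTBP3 (1.19 ± 0.39, adjusted p = 0.0344) rose in 22Rv1 with ETV4AAA.

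**Figure D3:**
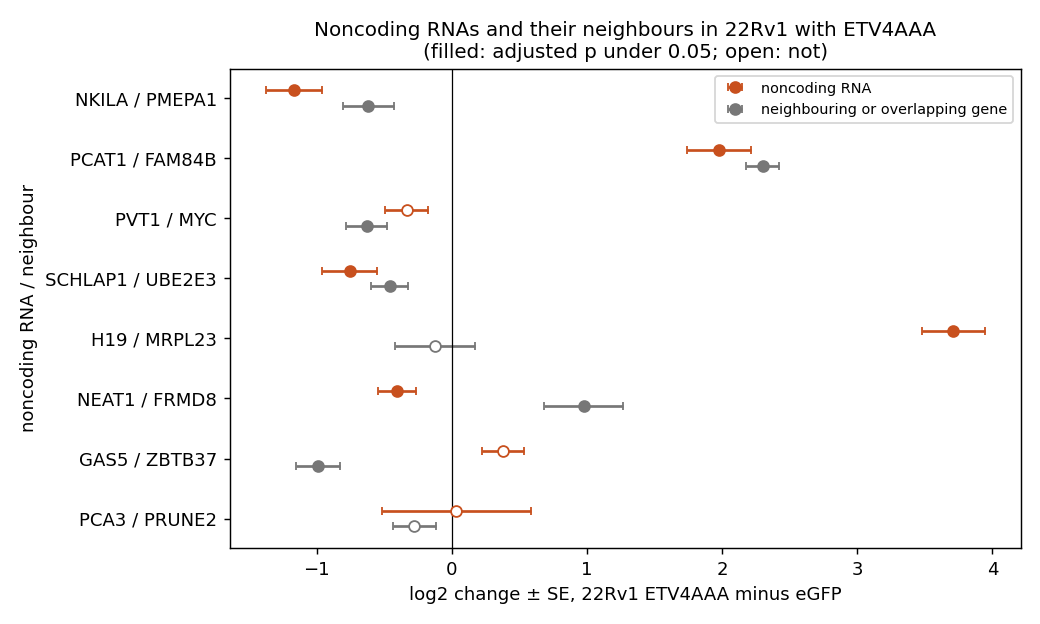
Log2 change (horizontal axis, ± SE, n = 2 libraries per group) in 22Rv1 with ETV4AAA against eGFP of 8 noncoding RNAs (orange) and a gene next to or overlapping each (grey), filled for an adjusted p under 0.05. NKILA and PMEPA1, SCHLAP1 and UBE2E3, and PVT1 and MYC lie left of 0, and PCAT1 and FAM84B lie right of 0. NEAT1, GAS5, H19 and PCA3 lie on the other side of 0 from FRMD8, ZBTB37, MRPL23 and PRUNE2. MYC was also listed as a neighbour of PCAT1, which lies on the other side of 0 from it.

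Of 13 neighbouring genes listed by position, 3 rose and 6 fell in 22Rv1 with ETV4AAA, where 17.4% of all tested genes rose and 14.4% fell. IGF2, which passed the count filter only through libraries in which it was high, was among the rises. UBE2E3, a ubiquitin-conjugating enzyme gene next to SCHLAP1, fell by 0.46 ± 0.14 in log2 units (adjusted p = 0.0239). TMEFF2, an androgen-responsive membrane protein gene near PCGEM1, fell by 1.22 ± 0.14 (adjusted p = 2.88e-05), from 89.5 and 95.4 CPM to 36.1 and 43.2 CPM. The median log2 change of the 13 neighbours was -0.28, beside -0.0012 over all tested genes.

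NKILA is known for its link to NF-kB, and a list of 20 NF-kB target genes, 15 of them tested, was read in the same comparisons. In 22Rv1 with ETV4AAA 8 of 15 rose and 0 fell, beside 17.4% and 14.4% of all genes, with a median log2 change of 0.90. TNFAIP3, which encodes the NF-kB inhibitor A20, went from 0.472 and 0.473 CPM with eGFP to 12.6 and 13.8 CPM (log2 4.80 ± 0.21, adjusted p = 1.25e-08). The adhesion molecule ICAM1 went from 1.19 and 1.52 CPM to 25.6 and 32.8 CPM (4.43 ± 0.27, adjusted p = 1.78e-07). The chemokine CXCL8 went from 0 counts with eGFP to 29 counts with ETV4AAA. BIRC2, an inhibitor of apoptosis and the most abundant member that did not pass anywhere, had a log2 change of 0.16 ± 0.18 (adjusted p = 0.53).

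With ETV4WT in 22Rv1, edgeR called 0 of these 15 NF-kB genes, 4 had an unadjusted p under 0.05, and DESeq2 and limma called 0. In PC3, 2 rose and 3 fell with ETV4WT and 3 rose and 0 fell with ETV4AAA, where 12.7% and 10.7% of all genes did so with ETV4WT and 2.45% and 1.24% with ETV4AAA. Without both construct libraries numbered 2 these list counts were 2 and 1, and 3 and 0. CXCL8 was among the rises of both, from 4.08 and 4.47 CPM with eGFP to 46.9 and 59.3 CPM with ETV4WT, against 27.7 and 30.6 CPM with ETV4AAA. These 8 of 15 NF-kB genes rose in the same 22Rv1 libraries in which NKILA was lower, and a link between them was not tested.

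Of 20 paraspeckle protein genes, whose products assemble on NEAT1, 0 rose and 14 fell in 22Rv1 with ETV4AAA, beside 17.4% and 14.4% of all genes, with a median log2 change of -0.55. SFPQ, a core paraspeckle protein, went from 396 and 433 CPM to 221 and 231 CPM (-0.88 ± 0.12, adjusted p = 0.00016), and TAF15, an RNA-binding protein, from 209 and 210.3 CPM to 119 and 134 CPM (-0.73 ± 0.12, adjusted p = 0.000442). HNRNPK, the most abundant of those that did not pass, had a log2 change of -0.22 ± 0.12 (adjusted p = 0.175). In PC3, 0 rose and 3 fell with ETV4WT, beside 12.7% and 10.7% of all genes, and these were CPSF7, HNRNPM and RBM14, or 0 and 2 without both construct libraries numbered 2. For ETV4AAA in PC3 and for ETV4WT in 22Rv1, edgeR, DESeq2 and limma each called 0 of 20, and 1 and 5 had an unadjusted p under 0.05 in edgeR.

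GAS5 is one of a group of snoRNA host genes, and 25 of 27 others were tested. With ETV4AAA in 22Rv1, 2 rose and 6 fell (median log2 -0.14), beside 17.4% and 14.4% of all genes. With ETV4WT in PC3 0 rose and 6 fell (median -0.24), beside 12.7% and 10.7%, or 0 and 3 without both construct libraries numbered 2. SNHG12 fell in both, by 0.58 ± 0.18 (adjusted p = 0.0249) and 1.00 ± 0.18 (adjusted p = 0.00184), and so did SNHG4, by 0.73 ± 0.15 (adjusted p = 0.00287) and 0.66 ± 0.14 (adjusted p = 0.00453). Both PC3 calls held without both construct libraries numbered 2 (0.00749 for SNHG12 and 0.0292 for SNHG4). SNHG15 fell in 22Rv1 with ETV4AAA by 0.69 ± 0.15 (adjusted p = 0.00405). With ETV4WT in 22Rv1, SNHG8 (0.66 ± 0.14, adjusted p = 0.0428) and SNHG29 (0.64 ± 0.13, adjusted p = 0.0289) rose and 0 fell, beside 1.06% and 0.439% of all genes, with a median of 0.29. SNHG5, the most abundant that passed nowhere, had log2 changes of 0.43 ± 0.15 in PC3 and 0.31 ± 0.15 in 22Rv1 with ETV4WT. For ETV4AAA in PC3, edgeR, DESeq2 and limma called 0 of 25, and 6 had an unadjusted p under 0.05 in edgeR.

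Other cancer-linked noncoding RNAs, 34 tested of 42 listed, moved in both directions. In 22Rv1 with ETV4AAA 11 rose and 9 fell (median log2 -0.06), beside 17.4% and 14.4% of all genes, and with ETV4WT 3 rose and 0 fell (median 0.005), beside 1.06% and 0.439%. PCAT14, a prostate-specific RNA, went from 6.81 and 7.78 CPM with eGFP to 31.9 and 32.5 CPM with ETV4WT (log2 2.14 ± 0.16, adjusted p = 5.24e-05) and to 111 and 112 CPM with ETV4AAA (3.93 ± 0.17, adjusted p = 3.46e-08). In PC3 PCAT14 held at most 0.0201 CPM. LINC00511 rose with both constructs in both lines, by log2 0.76 ± 0.14 (adjusted p = 0.0167) and 1.83 ± 0.14 (adjusted p = 1.05e-06) in 22Rv1 and by 0.88 ± 0.13 (adjusted p = 0.000623) and 0.76 ± 0.13 (adjusted p = 0.00797) in PC3. Both PC3 calls of LINC00511 held without both construct libraries numbered 2 (0.00031 and 0.0062).

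The other changes of that list were split between lines. With ETV4WT in PC3 9 rose and 2 fell, beside 12.7% and 10.7% of all genes, and 9 and 1 without both construct libraries numbered 2. With ETV4AAA 2 rose and 0 fell in both settings, beside 2.45% and 1.24%. CRNDE rose in PC3 with ETV4WT from 0.752 and 0.805 CPM to 4.14 and 6.47 CPM (log2 2.76 ± 0.26, adjusted p = 2.04e-05, or 2.50 and 4.56e-06 without both construct libraries numbered 2), and fell in 22Rv1 with ETV4AAA by 1.43 ± 0.22 in log2 units (adjusted p = 0.000373). OIP5-AS1, the most abundant that passed nowhere, stood between 173 and 370.1 CPM in the 12 libraries.

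**Figure D4:**
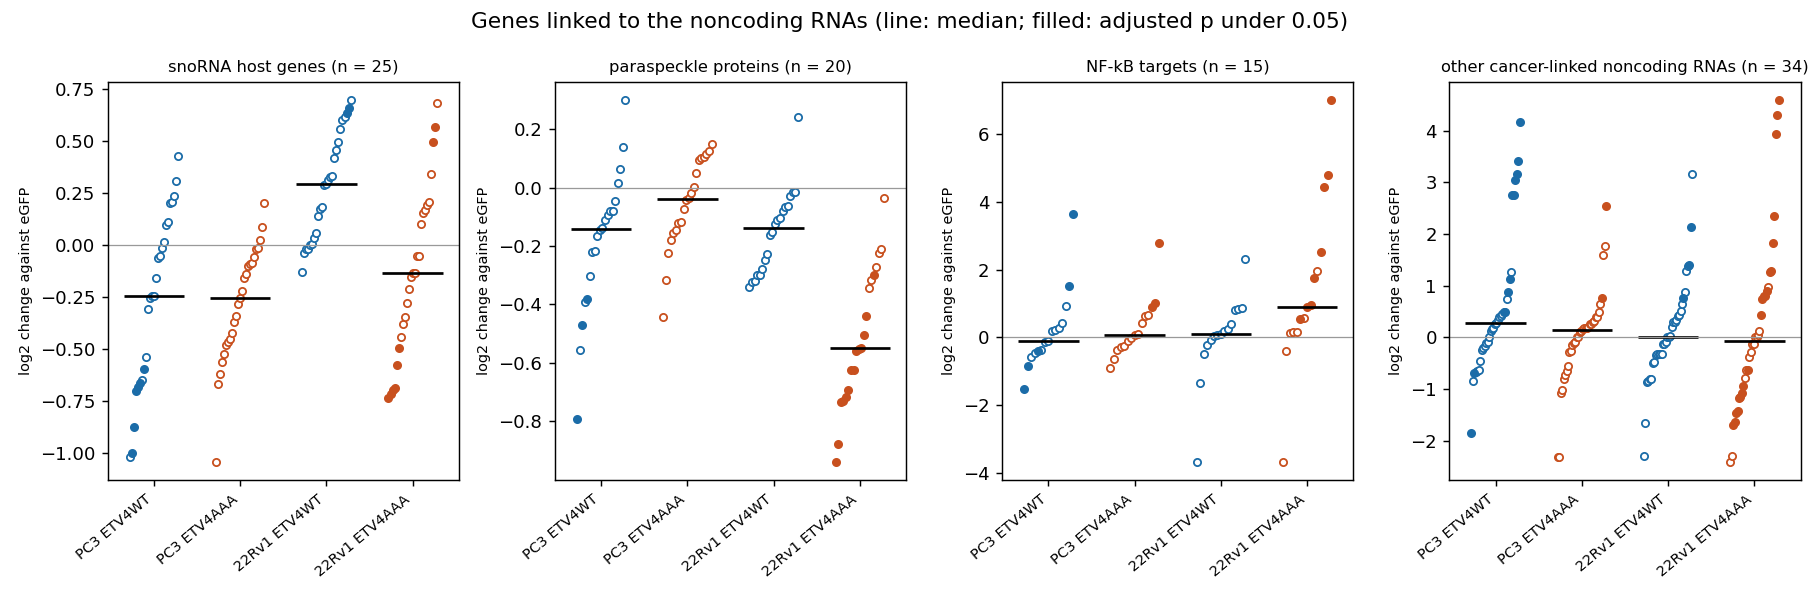
Log2 change against eGFP (vertical axes, which differ between panels) of each tested gene of 4 lists, in rank order within each line and construct, with filled points for an adjusted p under 0.05, open points otherwise and a line at the median. In 22Rv1 with ETV4AAA the paraspeckle protein medians lie at -0.55 and the NF-kB targets at 0.90, and the snoRNA host genes and other noncoding RNAs at -0.14 and -0.06.

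Markers of the lines moved in the same 22Rv1 libraries as these lists and members. The summed level of the 6 PC3 markers was 129 and 141 CPM in 22Rv1 with eGFP, 260 and 267 CPM with ETV4WT, against 716 and 723 CPM with ETV4AAA, and 5 of 6 rose with ETV4AAA. Most of that sum was CD44 and TGFBI, and TGFBI, at 264 and 269 CPM, was at most 0.161 CPM in PC3, while AXL, at 8.15 to 12.5 CPM in PC3, was at most 0.0237 CPM. Of the 7 luminal markers, 4 fell, 1 rose and 2 did not pass in 22Rv1 with ETV4AAA. The one that rose was KLK3, from 19.8 and 20.5 CPM with eGFP to 29.2 and 31.0 CPM (log2 0.58 ± 0.15, adjusted p = 0.0181), while KLK2 went from 94.9 and 109 CPM with eGFP to 73.9 and 81.7 CPM with ETV4AAA, and FOLH1 from 247 and 281 CPM to 141 and 157 CPM. H19 and PCAT1 with ETV4AAA stood above their level in every PC3 library. The part of these markers in the results was not tested.

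Genes with the pattern most like each member's over the 12 libraries, after each line's mean was removed, were read as a description with Pearson's r over 11392 or 11393 genes of at least 5 CPM. The points share libraries and constructs, and no p is given. The leading genes were ZNF385B for SCHLAP1 (r = 0.975), TRIM38 for PCAT1 (0.985), CSPG4, PTPRH and FKBP9 for H19 (0.976 each), LAD1 for NKILA (0.959), IMPDH2 for PVT1 (0.959), AMZ2P1 for GAS5 (0.953), ALDH5A1 for NEAT1 (0.912), MITF for MALAT1 (0.909) and ACP6 for PCA3 (0.736). ZNF385B was the only one of these 11 genes on the chromosome of its member, 830599 bases from SCHLAP1. PCA3 had the lowest leading r and the fewest counts of the 9.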

How the data were processed

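Gene counts of 12 poly(A)-enriched RNA libraries, 2 in each of 6 groups, were used as the authors deposited them, as whole-number counts per Ensembl gene. The submitters' processing notes name FastQC 0.11.9, STAR 2.5.3a and the GRCh38 build, and the counting program, its strand setting and its annotation are unstated there. Gene names, positions and exon lengths were taken from GENCODE 29, which held 99.55% of the IDs (58039 of 58302).

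Low-count genes were removed with filterByExpr by group, leaving 23238. edgeR 4.0.16 (R 4.3.3) with TMM scaling fitted 1 mean per group over all 12 libraries by quasi-likelihood, with Benjamini-Hochberg adjustment over all tested genes and a threshold of 0.05. The SE is the log2 change divided by the root of F. Folds against a group at 0 counts took 3 counts over that group as the floor, and ratios of low counts carry 95% exact intervals that cover counting error only. Totals of 41698738 to 51199207 counts set the precision. The script was tested on simulated data. Alternatives were other scaling, no filter, DESeq2 1.42.0, limma 3.58.1, each line on its own, a replicate block, and libraries left out.

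The members and gene lists were chosen with earlier results of these data known, and the overlapping genes were added after the annotation was read. Named from each list were up to 3 called genes with the lowest adjusted p against eGFP and the most abundant uncalled gene, apart from some genes that are not reported here; CASC8, SNHG8, SNHG29, CPSF7, HNRNPM and RBM14 were named after their values were seen. The named listed genes were recomputed without both PC3 construct libraries numbered 2, and CASC8 by other tools, as checks chosen after seeing the data. Like-pattern genes were those with the highest Pearson r of log2 CPM after each line's mean was removed.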

Additional observations from a re-analysis of the deposited data

Results flagged for a closer look

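The effect of a construct differed between the lines, by a test of the difference itself in the edgeR fit, for 3 members. H19 and NKILA among them passed the count filter only through 22Rv1. The ETV4AAA effect on H19 was higher in 22Rv1 than in PC3 by log2 4.61 ± 0.62, with both 22Rv1 ETV4AAA libraries above all others. This size is given as a value only, because H19 was near the floor in PC3. The ETV4AAA effect on PCAT1 was higher in 22Rv1 by log2 1.83 ± 0.43 (adjusted p = 0.0122), again with both 22Rv1 ETV4AAA libraries above all others. The fitted ETV4WT effect on NKILA was lower in 22Rv1 by log2 -6.22 ± 1.12, beside a log2 change of -0.0014 in 22Rv1. This difference rests on 0 against 20 counts in PC3, where NKILA passed the count filter only through 22Rv1. The fitted size depends on the prior count, so it is given as a value only.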

How the results depend on the processing

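No member's change that passed the threshold changed direction under any alternative run, but the larger side of all called genes did in some. For ETV4AAA against eGFP in 22Rv1, 3714 genes rose and 3821 fell with upper-quartile scaling, in place of 4054 and 3341. For ETV4WT against eGFP in PC3, 3010 rose and 3286 fell with the replicate block, in place of 2958 and 2476. For ETV4AAA against eGFP in PC3, falls outnumbered rises without ETV4AAA replicate 1, the reverse of the full run. Of the values for single genes, 145 kept their side of the threshold, 29 lost it and 2 gained it when 1 library was left out, and 229, 22 and 6 did so under the other settings. Over all genes, these totals moved by over 1.5 times. Without the low-count filter, ETV4WT against eGFP in 22Rv1 gave 904 in place of 348, the ETV4WT effect between lines 4436 in place of 2903, and ETV4AAA against eGFP in PC3 2152 in place of 858, of which 907 rose and 1245 fell against 569 and 289. With each line fitted on its own, ETV4AAA in PC3 gave 466 against eGFP (360 rose and 106 fell) and 1657 in place of 2550 against ETV4WT, which gave 1341 without both PC3 construct libraries numbered 2. Of the members, no filter called 1 in place of 0 for ETV4WT in 22Rv1. For ETV4AAA in PC3, 0 in place of 1 was called with DESeq2 size factors, upper-quartile factors, the DESeq2 test, each line on its own and the replicate block. For ETV4AAA against ETV4WT in PC3, 0 in place of 3 was called with DESeq2, each line on its own and without both libraries. ETV4WT in PC3 gave 1 in place of 2 with each line on its own and without both libraries, and the ETV4AAA effect between lines gave 4 in place of 2 without both. Upper-quartile scaling moved the median log2 change of all genes from 0 to 0.12 for ETV4WT in PC3, from 0.02 to -0.16 for the ETV4WT effect between lines and from 0 to 0.32 for the line difference, with the splits of rises and falls given in the results. Without both libraries 2624 genes rose and 1407 fell for ETV4WT in PC3, and 287 and 1054 for ETV4AAA against ETV4WT. With each line on its own these were 2517 and 1383, and 405 and 1252. The causes were not tested.

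Leaving out 1 library gave 2553 to 6265 called genes for ETV4WT, 213 to 2253 for ETV4AAA and 1648 to 1887 for ETV4AAA against ETV4WT in PC3. In 22Rv1 it gave 119 to 325, 5259 to 5423 and 3437 to 4172. The line difference gave 14659 to 15467, the ETV4WT effect 1425 to 4342 and the ETV4AAA effect 2317 to 4685. Among members the same orders gave 1 to 2, 0 to 0 and 0 to 2 in PC3, 0 to 0, 3 to 4 and 4 to 5 in 22Rv1, and 7 to 8, 1 to 1 and 1 to 4. Where this left a group with 1 library, it was assumed to vary like the other groups.

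Replicate numbers did not mark a pairing shared by all groups of a line. Same-numbered libraries' deviations correlated across 23238 genes at -0.103, -0.098 and 0.494 in PC3 and -0.149, 0.212 and -0.141 in 22Rv1. The value of 0.494 was between ETV4WT and ETV4AAA in PC3, so these groups shared a deviation that followed the replicate number. With the replicate block, NEAT1 with ETV4AAA against eGFP had an adjusted p of 0.0526 in PC3 and 0.0524 in 22Rv1. Depth limits PCGEM1, PCA3 and, in PC3, H19, NKILA and PCAT1, which held at most 15 counts in a PC3 library.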
